A study of Mus musculus with 6 samples.

Results

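The genes that cut, protect and cross-link the extracellular matrix were followed in mouse liver. Members were chosen by symbol alone: the Adamts, Adamtsl, Mmp, Timp and Loxl symbols with a number, and Lox. This rule found 56 genes among the 35976 in the deposited count table, of which 19 are Adamts, 5 Adamtsl, 23 Mmp, 4 Timp and 5 lysyl oxidase genes. No measured value decided membership, but the family was put forward with earlier results of the same contrast known, so every count and fold change of members below describes them and supports nothing further. Poly(A) RNA of whole liver was sequenced from 3 IRE1PKO and 3 IRE1fl libraries of male mice, all with the treatment label HFD, read here as high-fat diet, and all taken after 16 hours without food and 4 hours of refeeding. IRE1 is a sensor of unfolded protein in the endoplasmic reticulum, encoded by Ern1. The label PKO is not spelled out, the promoter or cell type that removes IRE1 is not given in the sources used here, and the series title speaks of communication between pituitary and liver. The suffix fl is not spelled out either, and the labels do not say whether each library is a separate animal, so p-values measure the spread between libraries.

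Matrix metalloproteinases (MMPs) are zinc enzymes that cut collagens, gelatin, elastin and many cell surface proteins. ADAMTS proteases are secreted relatives that cut proteoglycans or trim procollagen, and ADAMTS-like proteins share their accessory domains without the protease. TIMPs bind the active site of metalloproteinases and block it, and lysyl oxidases link collagen and elastin chains together, which makes fibres stiffer and harder to digest. In liver, activated stellate cells, macrophages, endothelial cells and hepatocytes each make some of them, and whole-liver RNA cannot tell a change in cell number from a change in RNA per cell.

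Total counts ran from 35776219 to 39277435 per library. Ern1 had 45.7, 36.6 and 44.2 CPM (counts relative to each library's scaled total) in IRE1PKO and 61.2, 49.3 and 60.7 CPM in IRE1fl, a partial difference that checks no label if the deletion lies outside the liver. Hepatocyte markers summed to 91825 to 115340 CPM in IRE1PKO and 100920 to 118190 CPM in IRE1fl, with none at 0, as the liver label calls for. Of these 10 markers 4 were called lower and none higher in IRE1PKO. In all, 14954 genes passed a filter on low counts and were tested with edgeR's quasi-likelihood test, and 9.52% of them passed an adjusted p of 0.05 (Benjamini-Hochberg over all tested genes), 5.68% higher and 3.85% lower in IRE1PKO. A member is called here where it passed that threshold, and log2 fold changes are IRE1PKO over IRE1fl with their standard error (SE). By the same threshold Ern1 was called lower, with a log2 fold change of -0.44 (SE 0.11, edgeR adjusted p = 0.0357).

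Of the 56 members, 7 had no count in any library and 38 passed the filter. Of these 38, 8 were higher in IRE1PKO and 1 was lower, which is 23.7% called against 9.52% of all tested genes. Since the contrast was known when the family was put forward, nothing is read from that difference. The median log2 fold change of the tested members was 0.50, against -0.001 for all tested genes, and 34 of the 38 were positive. The CPM of the groups did not overlap for 20 of the 38, against 31% of all tested genes. The called members were picked by adjusted p on the same libraries, so nothing is read from their groups not overlapping. The tested set has limits: 2 of its members, Adamts3 and Adamts4, passed the filter through their IRE1PKO libraries alone, and the 49 members with any count had a median of 0.38. Adamts12, Lox, Mmp13 and Timp1 had 3 IRE1PKO libraries but only 1 IRE1fl library over the filter's minimum. Their IRE1PKO group thus carried them into the tests, which favours members that are high there. Mmp11, Mmp12 and Mmp28 had 3 IRE1PKO and 2 IRE1fl libraries over it. The members called higher were the proteases Adamts1, Adamts2, Adamts4, Adamts14, Mmp2, Mmp12 and Mmp13 and the lysyl oxidase Loxl2. Mmp19 was called lower.

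**Figure D1:**
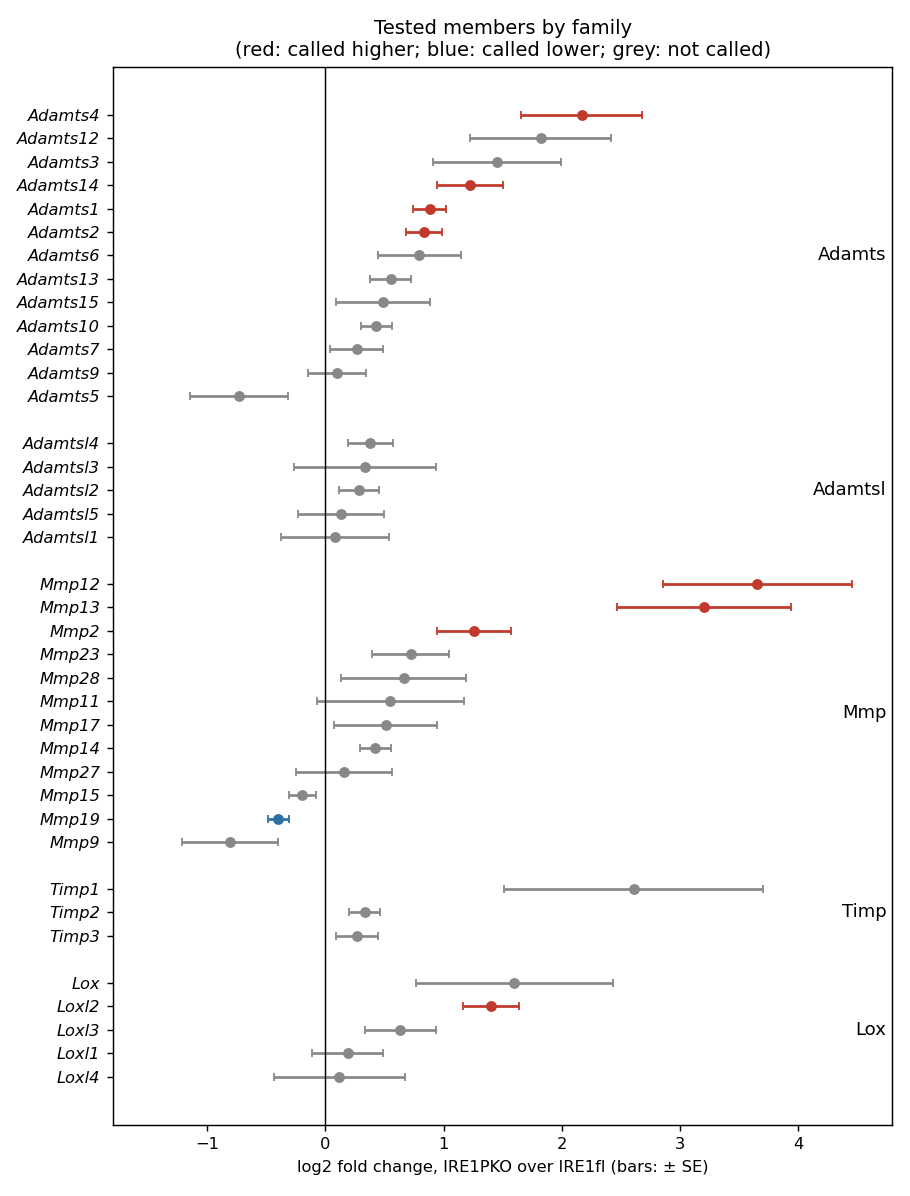
Log2 fold change of each of the 38 tested members, IRE1PKO over IRE1fl (x axis), with bars of 1 SE, grouped by family (y axis). The 8 red genes were called higher and Mmp19, in blue, lower; Mmp12 and Mmp13 lie farthest to the right at 3.65 and 3.20.

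Each family is set beside all tested genes, of which 5.68% were called higher and 3.85% lower. Of 13 tested Adamts proteases, 4 were called higher and none lower, with a median of 0.79. Of 12 tested Mmp genes, 3 were called higher and 1 lower, with a median of 0.53 and the widest range, -0.81 to 3.65. Of 3 tested Timp genes none was called, with a median of 0.33. Of 5 tested lysyl oxidases 1 was called higher, with a median of 0.64. None of the 5 ADAMTS-like genes was called, and their fold changes stayed between 0.08 and 0.38. The share called was 30.8% for Adamts, 33.3% for Mmp and 20% for lysyl oxidases, against 9.52% of all tested genes. These are counts of small families, and differences between families were not tested.

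Among the ADAMTS proteoglycanases, which cut aggrecan, versican and related proteoglycans, 2 of 5 tested genes rose. Adamts1 had 21.3, 16.1 and 15.8 CPM in IRE1PKO, against 10.05, 9.87 and 8.97 CPM in IRE1fl. Every IRE1PKO library lay above every IRE1fl library, and library 1 was the highest of its group. The group means were 17.8 ± 3.10 CPM in IRE1PKO and 9.63 ± 0.578 CPM in IRE1fl (SD, n = 3 each), and the log2 fold change was 0.88 (SE 0.14, edgeR adjusted p = 0.00308). Adamts4 had 1.44, 0.705 and 0.635 CPM in IRE1PKO and 0.221, 0.227 and 0.162 CPM in IRE1fl, which are 26 to 56 counts in IRE1PKO and 6 to 8 in IRE1fl. The groups did not overlap, and library 1 was the highest of the IRE1PKO group. Its log2 fold change was 2.17 (SE 0.51, edgeR adjusted p = 0.0229), though a gene that passes the filter through 1 group alone had to differ.

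Adamts5, the other main aggrecan-cutting enzyme and the neighbour of Adamts1 on chromosome 16, did not follow it. It had 0.872, 0.787 and 2.32 CPM in IRE1PKO and 1.63, 2.44 and 2.59 CPM in IRE1fl. IRE1PKO library 3 sat among the IRE1fl libraries and the other two below all of them, so the groups overlapped, with a log2 fold change of -0.73 (SE 0.41, edgeR adjusted p = 0.306). Without IRE1PKO library 3 it was called lower. Adamts1 lies at 85793827 to 85803113 and Adamts5 at 85858157 to 85901125 (RefSeq, GRCm38.p6). Adamts9 and Adamts15, of the same group, had log2 fold changes of 0.10 and 0.49 and were not called. Adamts8 and Adamts20 were below the filter, Adamts20 with no count in any library.

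The procollagen N-proteinases trim the amino end of fibrillar procollagen so that fibres can form, and 2 of the 3 rose. Adamts2 had 12.5, 11.1 and 14.7 CPM in IRE1PKO, against 7.92, 7.29 and 6.28 CPM in IRE1fl, with no overlap and a log2 fold change of 0.83 (SE 0.15, edgeR adjusted p = 0.00660). Adamts14 had 4.13, 2.85 and 2.54 CPM in IRE1PKO and 1.05, 1.56 and 1.45 CPM in IRE1fl, with no overlap and a log2 fold change of 1.23 (SE 0.28, edgeR adjusted p = 0.0202). Library 1 was again the highest of the IRE1PKO group for Adamts14. Adamts3, the third enzyme of this kind, had 14 to 22 counts in IRE1PKO and 4 to 8 in IRE1fl, a log2 fold change of 1.45 (SE 0.54) that was not called (edgeR adjusted p = 0.120).

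The remaining ADAMTS proteases were not called, though several came close. Adamts13, the enzyme that cuts von Willebrand factor and is made in stellate cells of the liver, had 10.3, 10.8 and 9.55 CPM in IRE1PKO and 6.01, 8.87 and 6.03 CPM in IRE1fl. The groups did not overlap, IRE1fl library 2 stood above the other two of its group, and the log2 fold change was 0.55 (SE 0.17, edgeR adjusted p = 0.0707). Adamts10, which works with fibrillin microfibrils, had 12.8, 15.3 and 12.4 CPM in IRE1PKO and 9.41, 9.95 and 10.7 CPM in IRE1fl, a log2 fold change of 0.43 (SE 0.13, edgeR adjusted p = 0.0629). Adamts12 had 21 to 36 counts in IRE1PKO and 2 to 12 in IRE1fl, a log2 fold change of 1.82 (SE 0.60, edgeR adjusted p = 0.0792). Adamts7, an enzyme that cuts cartilage oligomeric matrix protein, overlapped between groups, with 9.16, 10.96 and 7.21 CPM in IRE1PKO and 10.2, 5.90 and 6.65 CPM in IRE1fl (log2 fold change 0.26, edgeR adjusted p = 0.513). Adamts6 had a log2 fold change of 0.79 with overlapping groups, while Adamts16 and Adamts17 were below the filter and Adamts18 and Adamts19 had no count.

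ADAMTS-like proteins bind microfibrils and have no protease. Adamtsl2, which is highest of them per exon length, had 9.16, 8.84 and 13.1 CPM in IRE1PKO and 8.11, 8.56 and 8.83 CPM in IRE1fl. IRE1PKO library 3 stood apart from the other two, which lay just above the IRE1fl range. Its log2 fold change was 0.29 (SE 0.17, edgeR adjusted p = 0.321), and Adamtsl4 had 0.38 with an adjusted p of 0.233 in the same test.

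**Figure D2:**
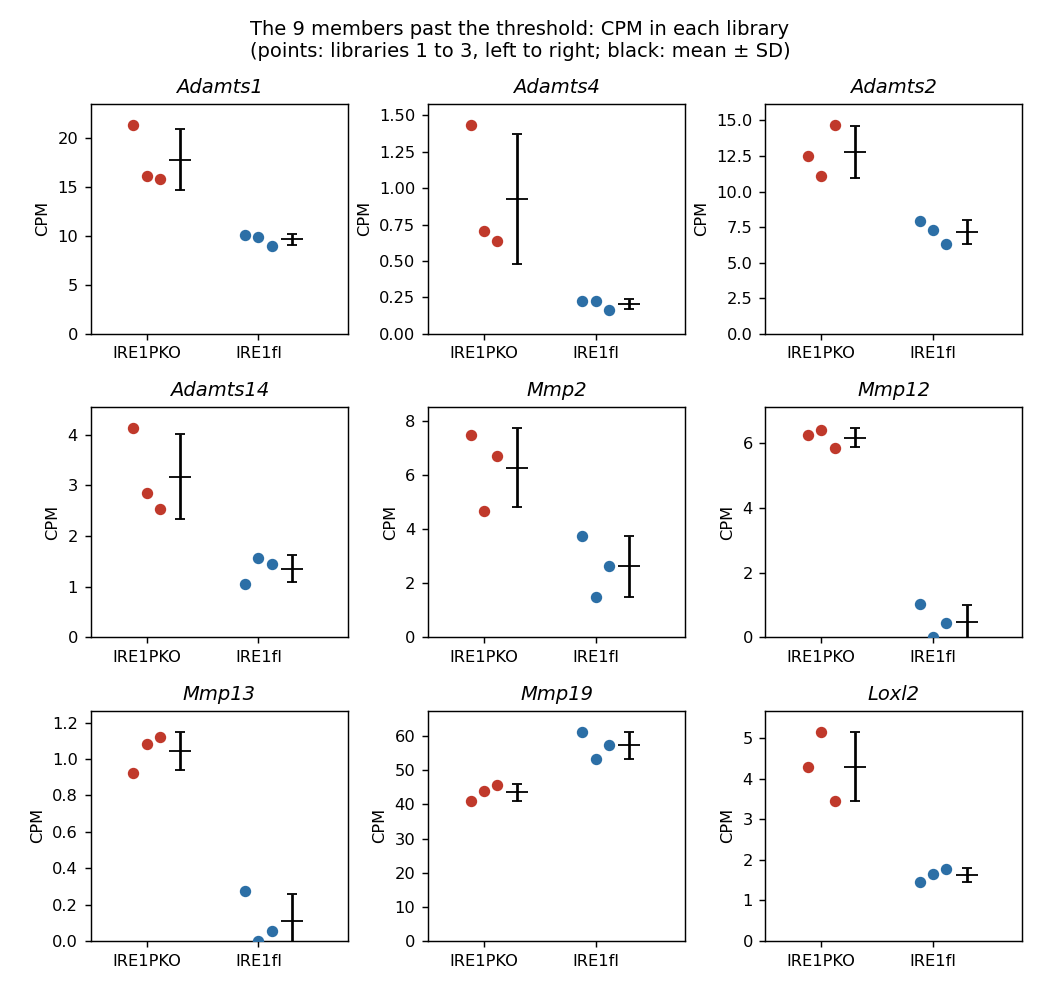
CPM of the 9 called members in each library (y axis, linear from 0), with IRE1PKO left of IRE1fl; black marks give the mean and SD of 3 libraries, and bars that would pass below 0 are cut there. The groups do not overlap in any of the 9 panels, which were chosen for being called (31% of all tested genes do not overlap), and Mmp19 is the panel with IRE1PKO below IRE1fl.

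The Mmp family held the largest relative differences and the most abundant genes, and these were not the same genes. Mmp12, macrophage elastase, had 6.26, 6.40 and 5.84 CPM in IRE1PKO, against 1.02, 0 and 0.431 CPM in IRE1fl, which are 236 to 244 counts in IRE1PKO and 37, 0 and 16 in IRE1fl. The IRE1PKO libraries were close together, while the IRE1fl libraries ran from nothing to 37 counts. The mean was 12.7 times higher in IRE1PKO, and the log2 fold change was 3.65 (SE 0.80), just past the threshold (edgeR adjusted p = 0.0480). Over the fits that leave out 1 library, this fold change ran from 3.08 without IRE1fl 2 to 4.79 without IRE1fl 1. Macrophage markers summed to 522 to 670 CPM in IRE1PKO and 405 to 545 CPM in IRE1fl, lowest in the IRE1fl library with no Mmp12 count, and their part in the Mmp12 values was not tested. Mmp13, the main interstitial collagenase of mice, had 36, 40 and 46 counts in IRE1PKO and 10, 0 and 2 in IRE1fl. Its log2 fold change was 3.20 (SE 0.74, edgeR adjusted p = 0.0212), and IRE1fl library 1 was again the highest of its group. Mmp13 came into the tests through its IRE1PKO libraries, with only 1 IRE1fl library over the filter's minimum. Over the same fits the Mmp13 fold change ran from 2.64 without IRE1fl 2 to 5.08 without IRE1fl 1.

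Mmp12 and Mmp13 are neighbours in a cluster of 10 Mmp genes on chromosome 9, at 7272514 to 7699585. Only 3 of the 10 passed the filter. The third, Mmp27, had 21, 44 and 37 counts in IRE1PKO and 26, 32 and 27 in IRE1fl, with a log2 fold change of 0.16 (edgeR adjusted p = 0.848). Of the other 7, 4 had no count at all (Mmp1a, Mmp1b, Mmp10 and Mmp20), and Mmp3, Mmp7 and Mmp8 had at most 9 counts in any library. In the GENCODE M21 annotation, Mmp1b overlaps Mmp12 on the opposite strand over 157 exon bases. Their RefSeq spans, 7344397 to 7360461 for Mmp12 and 7367670 to 7388026 for Mmp1b, do not overlap. Mmp1b was at 0 in all libraries.

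The promoters of the pair are shown because these genes had the largest fold changes and share short motifs near their starts. Each is 250 bases before to 50 bases after a RefSeq start (GRCm38.p6), 5′ to 3′ on the gene's strand, with capitals marking the AP-1 motif TGAGTCA, or its reverse TGACTCA, and the TATA motif TATAAA. For Mmp12, the second of 2 listed starts is shown (chr9:7347124-7347423, plus strand). The first has neither motif. Mmp13 has 1 listed start (chr9:7272264-7272563, plus strand). The Adamts1 promoter (chr16:85803064-85803363, minus strand), from a called member outside the cluster, has the TATA motif and no AP-1 motif.
Mmp12: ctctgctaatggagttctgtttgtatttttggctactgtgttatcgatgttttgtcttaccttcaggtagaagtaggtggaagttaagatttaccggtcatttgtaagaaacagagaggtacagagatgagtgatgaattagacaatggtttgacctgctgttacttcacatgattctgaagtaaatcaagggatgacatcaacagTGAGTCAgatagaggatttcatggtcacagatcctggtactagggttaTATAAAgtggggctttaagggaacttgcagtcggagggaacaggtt
Mmp13: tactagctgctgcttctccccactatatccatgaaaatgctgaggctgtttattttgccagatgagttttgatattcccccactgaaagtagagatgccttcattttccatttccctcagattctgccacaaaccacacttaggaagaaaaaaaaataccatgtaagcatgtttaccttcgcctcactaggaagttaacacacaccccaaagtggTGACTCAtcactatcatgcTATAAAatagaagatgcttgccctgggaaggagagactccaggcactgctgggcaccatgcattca
Adamts1: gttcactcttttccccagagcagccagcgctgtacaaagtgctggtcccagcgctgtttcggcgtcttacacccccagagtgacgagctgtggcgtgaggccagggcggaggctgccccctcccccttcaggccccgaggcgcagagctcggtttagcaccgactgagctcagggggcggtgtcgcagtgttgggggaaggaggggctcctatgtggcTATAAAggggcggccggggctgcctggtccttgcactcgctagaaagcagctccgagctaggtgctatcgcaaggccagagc

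The AP-1 motif begins 44 bases before the start in Mmp12 and 35 bases before it in Mmp13, where it reads in the reverse sense. TATAAA begins 4 bases after the listed start in Mmp12, 16 bases before it in Mmp13 and 32 bases before it in Adamts1. All distances depend on the listed RefSeq starts. RefSeq promoters matched 37 of the 56 members, with 40 starts, and no promoter was in the table for Loxl2, Adamts4, Mmp2 or Mmp19. Of the 40, 7 (17.5%) hold TGAGTCA on either strand, against 5.20% of all 32851 promoters of the same length. All 7 belong to genes of the chromosome 9 cluster. Their matches are shown with 10 bases on each side, on the gene's strand, to set the called pair beside the members at or near 0.
Mmp12: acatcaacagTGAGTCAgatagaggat
Mmp13: cccaaagtggTGACTCAtcactatcat
Mmp3: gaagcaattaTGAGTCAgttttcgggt
Mmp7: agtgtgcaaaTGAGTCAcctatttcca
Mmp10: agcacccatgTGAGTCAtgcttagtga
Mmp1a: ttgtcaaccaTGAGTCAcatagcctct
Mmp1b: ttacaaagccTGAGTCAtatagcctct

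Of these 7 genes, Mmp12 and Mmp13 were called higher, Mmp3 and Mmp7 had at most 8 counts in a library, and Mmp10, Mmp1a and Mmp1b had none. The motif was thus present in both called genes of the cluster and in 5 genes of it that were not tested. TATAAA was found in 30.0% of the member promoters and 13.6% of all promoters. A match says only that these letters stand in this window.

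Of the gelatinases, which digest denatured collagen and basement membrane, Mmp2 was called higher and Mmp9 was not called. Mmp2, made mainly by stromal cells, had 7.49, 4.67 and 6.70 CPM in IRE1PKO and 3.74, 1.503 and 2.64 CPM in IRE1fl. The lowest IRE1PKO library was above the highest IRE1fl library, with a log2 fold change of 1.26 (SE 0.31, edgeR adjusted p = 0.0340). Mmp9, made largely by leukocytes, had 0.616, 0.868 and 0.611 CPM in IRE1PKO and 0.997, 1.79 and 0.889 CPM in IRE1fl, all below in IRE1PKO, with a log2 fold change of -0.81 (SE 0.40) that was not called (edgeR adjusted p = 0.240). IRE1fl library 2 was the highest for Mmp9. Neutrophil markers summed to 4.31 to 6.21 CPM in IRE1PKO and 4.07 to 12.5 CPM in IRE1fl, with the highest sum also in IRE1fl library 2, and their part in the Mmp9 values was not tested.

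The most abundant Mmp genes per exon length were Mmp19, Mmp15 and Mmp14. Mmp19, an enzyme with basement membrane substrates, had 40.9, 44.0 and 45.5 CPM in IRE1PKO, against 61.3, 53.3 and 57.4 CPM in IRE1fl. On the log2 scale it fell by 0.40 (SE 0.09; edgeR adjusted p = 0.0173), the 1 member called lower. Tmem198b, on the opposite strand, shares 789 exon bases with it and was not called (6.52 ± 1.55 CPM in IRE1PKO and 6.01 ± 1.43 CPM in IRE1fl, SD, n = 3 each). Mmp14, the membrane-bound collagenase that activates pro-MMP2 together with TIMP2, had 52.2, 45.4 and 35.1 CPM in IRE1PKO and 34.2, 33.2 and 31.7 CPM in IRE1fl. The groups did not overlap, IRE1PKO library 3 lay close to the IRE1fl range, and the log2 fold change of 0.42 (SE 0.13) was not called (edgeR adjusted p = 0.0678). Mmp15, another membrane-bound MMP, overlapped, with 56.3, 65.3 and 64.1 CPM in IRE1PKO and 58.5, 77.0 and 77.1 CPM in IRE1fl (log2 fold change -0.20, edgeR adjusted p = 0.328).

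These 3 genes held 87.7% to 95.9% of the summed Mmp CPM of a library. Their sum was 149.7 ± 4.96 CPM in IRE1PKO and 161 ± 6.42 CPM in IRE1fl, while the other 20 Mmp genes together had 19.6 ± 1.47 CPM in IRE1PKO and 8.42 ± 2.02 CPM in IRE1fl (SD, n = 3 each). The total over all Mmp genes was therefore 169.3 ± 3.91 CPM in IRE1PKO and 169.6 ± 4.54 CPM in IRE1fl, a difference smaller than the spread between libraries. The total over Adamts proteases was 82.3, 76.8 and 74.0 CPM in IRE1PKO and 53.4, 50.9 and 48.5 CPM in IRE1fl, without overlap. ADAMTS-like sums did not overlap either, at 17.1 to 20.5 CPM in IRE1PKO and 13.95 to 16.3 CPM in IRE1fl. Nor did lysyl oxidase sums, at 12.1 to 12.7 CPM in IRE1PKO and 5.49 to 10.9 CPM in IRE1fl. Timp sums overlapped, at 49.1 to 61.8 CPM in IRE1PKO and 39.6 to 55.6 CPM in IRE1fl. Sums of CPM weigh long transcripts more, and they compare groups here, not families.

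**Figure D3:**
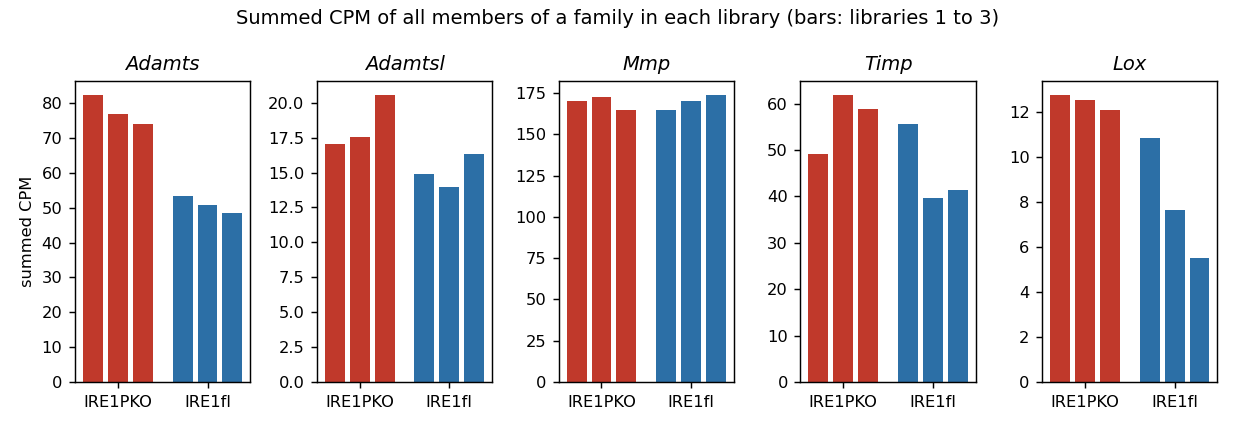
Summed CPM of all members of each family (y axes, linear from 0, own scale per panel) in IRE1PKO libraries 1 to 3, then IRE1fl libraries 1 to 3. The Mmp bars stand between 165 and 174 CPM in all 6 libraries. The Adamts, Adamtsl and Lox bars are higher in every IRE1PKO library than in any IRE1fl library, and the Timp bars overlap.

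The remaining tested Mmp genes had overlapping groups or few counts and were not called. Mmp23, Mmp17 and Mmp11 had log2 fold changes of 0.72, 0.51 and 0.55 with overlapping groups. Mmp28 had 14 to 20 counts in IRE1PKO and 6 to 12 in IRE1fl, a log2 fold change of 0.66 (edgeR adjusted p = 0.477). Mmp16, Mmp21, Mmp24 and Mmp25 did not pass the filter, with at most 4 counts in any library.

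No TIMP was called. Timp1, the inducible inhibitor, had 53, 40 and 47 counts in IRE1PKO and 21, 0 and 0 in IRE1fl, or 1.36, 1.09 and 1.15 CPM in IRE1PKO and 0.581, 0 and 0 CPM in IRE1fl. The groups did not overlap, but the IRE1fl group held 1 library with 21 counts and 2 with none, and the log2 fold change of 2.61 had an SE of 1.09 (edgeR adjusted p = 0.194). Without IRE1fl library 1 it was called (edgeR adjusted p = 0.00112), and in every other omission of 1 library it was not. That fit keeps only the 2 IRE1fl libraries with no count. Timp1 then enters through IRE1PKO alone and had to differ, so nothing is read from that call. Timp2, which takes part in MMP2 activation, had 20.6, 19.7 and 20.0 CPM in IRE1PKO and 19.4, 14.2 and 14.2 CPM in IRE1fl. Its IRE1fl library 1 lay just under the IRE1PKO libraries and the other two well below, with a log2 fold change of 0.33 (SE 0.13, edgeR adjusted p = 0.139).

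Timp3, which binds to the matrix and is the most abundant of the family per exon length, had 27.2, 41.0 and 37.7 CPM in IRE1PKO and 35.6, 25.3 and 27.1 CPM in IRE1fl. The groups overlapped, with 1 library of each sitting among the other group (log2 fold change 0.27, SE 0.18, edgeR adjusted p = 0.398). Timp4 had at most 2 counts in any library. Per exon length, Timp3 and Timp2 stood at 7.48 ± 1.53 and 5.42 ± 0.120 CPM per kb in IRE1PKO and at 6.21 ± 1.17 and 4.30 ± 0.804 CPM per kb in IRE1fl. Timp1 was at 1.35 ± 0.162 CPM per kb in IRE1PKO and 0.218 ± 0.378 CPM per kb in IRE1fl, below both in either group.

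Of the lysyl oxidases, Loxl2 alone was called. It had 4.29, 5.15 and 3.45 CPM in IRE1PKO, against 1.44, 1.64 and 1.78 CPM in IRE1fl, so that every IRE1PKO library was above every IRE1fl library. Its log2 fold change was 1.40 (SE 0.24, edgeR adjusted p = 0.00415), and an antisense gene that shares 301 exon bases with it had at most 7 counts. Lox, the founding enzyme of the family, had 12, 19 and 29 counts in IRE1PKO and 14, 4 and 0 in IRE1fl. IRE1fl library 1 lay among the IRE1PKO libraries, and the log2 fold change of 1.60 had an SE of 0.84 (edgeR adjusted p = 0.267). Loxl3 had 2.57, 2.85 and 2.25 CPM in IRE1PKO and 2.35, 1.36 and 1.21 CPM in IRE1fl, a log2 fold change of 0.64 (SE 0.30, edgeR adjusted p = 0.210). Htra2, on the opposite strand, shares 535 exon bases with Loxl3 and was not called. Its mean was 11.4 ± 1.68 CPM in IRE1PKO and 10.8 ± 1.03 CPM in IRE1fl (SD, n = 3 each).

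Loxl1, which acts on elastic fibres, and Loxl4 overlapped widely. Loxl1 had 2.82, 1.84 and 3.91 CPM in IRE1PKO and 3.10, 2.50 and 1.94 CPM in IRE1fl (log2 fold change 0.19, SE 0.30). Loxl4 had 2.75, 2.17 and 1.76 CPM in IRE1PKO and 3.57, 2.01 and 0.566 CPM in IRE1fl (log2 fold change 0.12, SE 0.56). The IRE1fl libraries alone spanned more than the whole IRE1PKO range for Loxl4. Neither was called, and the sign of both turned with single libraries. Per exon length Loxl1 was the highest of the 5 in both groups, at 0.867 ± 0.313 CPM per kb in IRE1PKO and 0.762 ± 0.176 CPM per kb in IRE1fl. Loxl2 was at 0.795 ± 0.158 CPM per kb in IRE1PKO, within the spread of Loxl1 there, and at 0.300 ± 0.0315 CPM per kb in IRE1fl.

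**Figure D4:**
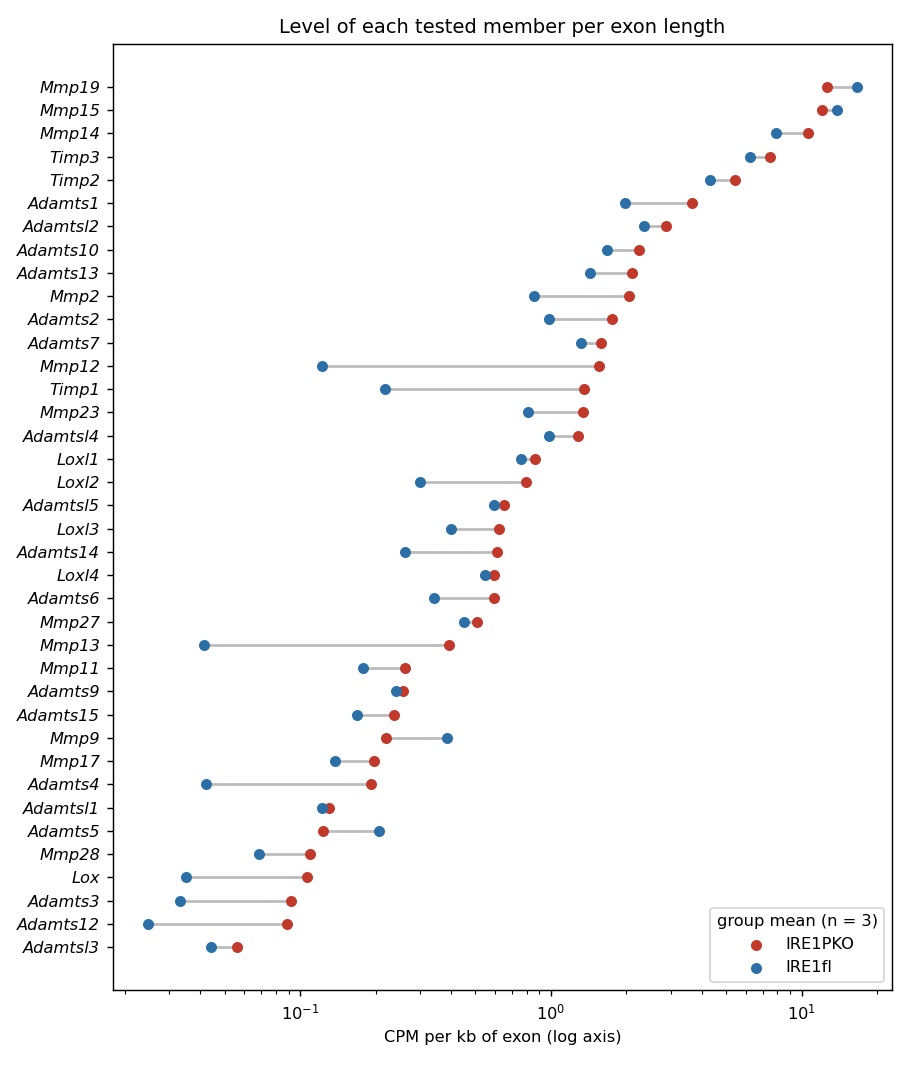
Mean CPM per kb of exon (x axis, log scale) of each tested member (y axis) in IRE1PKO (red) and IRE1fl (blue), n = 3 each, ordered by the IRE1PKO mean; grey lines join the means of a gene. Mmp19, Mmp15, Mmp14, Timp3 and Timp2 lead in both groups, and Mmp12 ranks 13 in IRE1PKO and 31 in IRE1fl.

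Across all tested members, the 5 highest per exon length were Mmp19, Mmp15, Mmp14, Timp3 and Timp2 in both groups. In IRE1PKO, Mmp19 at 12.6 ± 0.686 and Mmp15 at 12.1 ± 0.947 CPM per kb lay within each other's spread, and Mmp14 followed at 10.6 ± 2.06. In IRE1fl, Mmp19 had 16.6 ± 1.15, Mmp15 13.8 ± 2.08 and Mmp14 7.89 ± 0.302 CPM per kb (SD, n = 3 each), and the libraries of Mmp14 were below all those of the other two. Mmp12 stood at 1.55 ± 0.0733 CPM per kb in IRE1PKO and 0.122 ± 0.129 in IRE1fl, rank 13 of 38 in IRE1PKO and rank 31 in IRE1fl. Mmp13 ranked 25 in IRE1PKO and 35 in IRE1fl.

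The median within-group SD of members on the log2 scale was 0.390, against 0.188 over all tested genes. These medians were not matched for level, and low counts widen this SD. It was largest in Mmp12 (1.59), Timp1 (1.46) and Lox (1.15), which had IRE1fl libraries at 0. In the members highest per exon length it was 0.0904 (Mmp19), 0.181 (Mmp15), 0.208 (Mmp14), 0.288 (Timp3) and 0.183 (Timp2). Among the tested members, IRE1fl library 1 stood apart from libraries 2 and 3. It was the highest of its group for 21 of 38 tested members, against 8 for library 2 and 9 for library 3. Its median member stood at -0.09 relative to the mean of the 6 libraries on the log2 scale, against -0.35 and -0.37 in libraries 2 and 3. These ranks and medians were not taken over all tested genes, so they are not shown to be particular to this family. Timp1, Mmp12, Mmp13, Lox and Loxl4 were all highest in IRE1fl library 1 within that group. Without this library the median log2 fold change of members was 0.69, in place of 0.50.

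Members kept their calls to different degrees when 1 library was left out. Adamts1, Adamts2 and Loxl2 passed in all 6 fits that left out 1 library, with edgeR adjusted p of at most 0.0321. Adamts14 lost its call without IRE1PKO 1 or IRE1fl 3, and Adamts4 and Mmp19 each lost theirs in 3 of the 6 fits. Mmp2, Mmp12 and Mmp13 each lost theirs in 4 of the 6, with adjusted p up to 0.125, 0.164 and 0.0935. In the other direction, Mmp14 was called without IRE1PKO 3, Adamts13 without IRE1fl 2, and Timp1 and Timp2 without IRE1fl 1. The count of members called higher was 3 without IRE1PKO 1 and 3 without IRE1fl 3. Over all tested genes, 398 of 15346 and 472 of 15328 were called higher in those fits. With all 6 libraries, 849 of 14954 were, so calls became fewer in the whole table too.

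**Figure D5:**
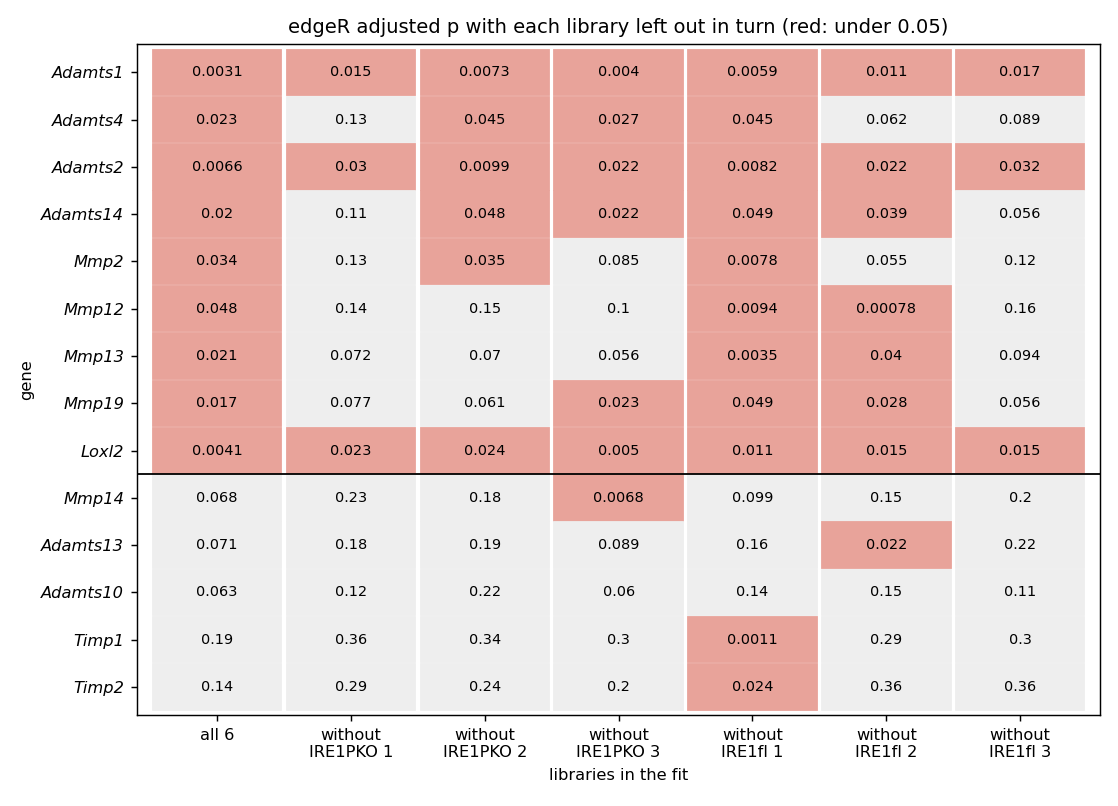
Adjusted p of edgeR's quasi-likelihood test for the 9 called members and 5 others (y axis) with all 6 libraries and with each left out in turn (x axis); red cells are under 0.05. Adamts1, Adamts2 and Loxl2 are red throughout, and Timp1 and Timp2 only without IRE1fl 1.

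Genes that work with these enzymes were described from lists chosen with earlier results known. Over all tested genes, 5.68% were called higher and 3.85% lower. Of 13 fibrillar and basement membrane collagens, 10 were called higher and none lower, with a median log2 fold change of 0.92. Col18a1, the most abundant, had 1066.5 ± 136 CPM in IRE1PKO and 1177 ± 28.5 CPM in IRE1fl and was not called. Sums of this list overlapped, at 1322 to 1570 CPM in IRE1PKO and 1354.5 to 1368 CPM in IRE1fl. Col1a1 had 36.4 ± 4.02 CPM in IRE1PKO and 8.62 ± 2.87 CPM in IRE1fl (SD, n = 3 each). Of 13 procollagen processing and folding genes, Serpinh1, the collagen chaperone, alone was called, higher by 0.69 (SE 0.10), and the median was 0.30. Of 12 elastic fibre and proteoglycan genes 4 were higher and none lower (Dcn, Lum, Fbln5 and Bgn), with a median of 0.48. Eln, the elastin gene, had a log2 fold change of 0.24 and was not called. None of 11 ADAM proteases was called (median 0.12), and of 5 proprotein convertases, which activate many of these proteases, Pcsk6 alone was, higher by 0.52 (SE 0.11).

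The plasminogen system, whose plasmin activates several MMPs, held calls in both directions, with 6 of 13 tested genes higher and 3 lower. The activator gene Plau had 3.44 ± 0.355 CPM in IRE1PKO and 1.27 ± 0.0780 CPM in IRE1fl, a log2 fold change of 1.43 (SE 0.23). Thbs1, a matricellular protein gene, was higher by 1.70 (SE 0.24) on the log2 scale. Serpine2, a protease inhibitor gene, had 5.95 ± 0.915 CPM in IRE1PKO and 29.4 ± 7.55 CPM in IRE1fl (SD, n = 3 each), with a fold change of -2.31 on the log2 scale (SE 0.20). Sparc was higher by 0.88 (SE 0.14). Reck, a membrane inhibitor of MMPs, had a log2 fold change of -0.62 and was not called (edgeR adjusted p = 0.0859).

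Cell type markers were set beside these values. Of 14 tested stellate cell and fibroblast markers, 4 were higher and none lower (Lrat, Pdgfrb, Reln and Hgf), and the list summed to 419 to 516 CPM in IRE1PKO and 365 to 438 CPM in IRE1fl. Acta2, the marker of activated stellate cells, was at 3.23, 3.36 and 2.49 CPM in IRE1PKO and at 5.90, 4.17 and 1.48 CPM in IRE1fl. The groups overlapped and it was not called (log2 fold change -0.34, SE 0.44, edgeR adjusted p = 0.678). Of 15 macrophage markers, 2 were higher (Gpnmb and Spp1) and Marco was lower. Within IRE1fl, library 1 had the highest sum for both lists, 438 and 545 CPM. Of 12 endothelial markers 5 were higher, with sums of 345 to 465 CPM in IRE1PKO and 291 to 321 CPM in IRE1fl, and 4 of 10 hepatocyte markers were lower (Cps1, Serpina1a, Arg1 and Fah), with a list median of -0.27. Of 7 tested cholangiocyte markers Spp1, also in the macrophage list, was higher and Sox9 lower (log2 fold change -1.28, SE 0.22), with a median of -0.15. The whole list summed to 58.3 to 68.9 CPM in IRE1PKO and 53.3 to 58.4 CPM in IRE1fl, and without Spp1 to 23.49 to 25.15 CPM in IRE1PKO and 33.1 to 33.9 CPM in IRE1fl, the opposite direction. No marker of these lists was at 0 in every library. The part of these cell types in the members' values was not tested.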

How the data were processed

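The authors deposited whole-number counts for each gene symbol in 6 liver poly(A) RNA libraries, not pooled. Reads were placed on mm10, per the submitters' processing notes; no aligner, counter, strand setting or annotation is given. Values from 1 to 8 were even 2.58 to 3.19 times as often as odd, so both mates of a pair may be counted. Genes were filtered with filterByExpr, scaled with TMM and tested over all 6 libraries by edgeR 4.0.16 (R 4.3.3). The test was quasi-likelihood with robust fitting, adjusted over all 14954 genes. In counts simulated from these libraries, the same steps recovered 28.8% of 1.5-fold, 73.1% of 2-fold and 85.9% of 4-fold changes. Of 132 calls there, 9 were false. A member that was not called is thus not shown to be unchanged. SE is the log2 fold change over the root of F. In CPM, 1 count was 0.0244 to 0.0284. An exact permutation test of 3 against 3 cannot go below p = 0.1. Levels per kb and shared exon bases used the union of GENCODE M21 exons (GRCm38, the build of mm10). These may differ from the authors' annotation. Coordinates and promoters are from RefSeq, GRCm38.p6.

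The members and gene lists were chosen with earlier results of these data known. Library values are given for called members, tested Timp and lysyl oxidase genes and other tested members with a mean of 5 CPM or more. Adamts5, Mmp9, Mmp27, Col1a1, Col18a1, Eln, Reck, Acta2 and the members given by count were added after their values were seen. Alternatives were other scalings and filters, DESeq2 1.42.0, limma-voom (limma 3.58.1), halved counts, a replicate block and each library left out; the fit without robust dispersion was added after the data were seen.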

Additional observations from a re-analysis of the deposited data

How the results depend on the processing

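The median log2 fold change of tested members stayed positive in every alternative run, from 0.42 at a mean of 1 CPM to 0.69 without IRE1fl 1, apart from 0.38 without the filter on low counts, where 49 members were tested. The number called higher was 6 to 12 of the tested members under the other scalings, filters and tests (12 with the DESeq2 Wald test and 6 at a mean of 1 CPM), and 3 to 10 with each library left out. Over all tested genes, 790 to 1182 were called higher in the former runs and 398 to 868 in the latter. The number of members called lower was 0 when library totals alone set the scale, and 0 to 2 with each library left out. Over all tested genes these were 412 and 255 to 616. With library totals the median over all genes was 0.07, and 73.6% of all calls were higher in place of 59.6%. All 9 called members remained called with DESeq2 size factors, the DESeq2 Wald test, limma-voom, halved counts and no robust fitting. Mmp12 lost its call without the filter and under the replicate block (edgeR adjusted p up to 0.124), and Mmp19 with library totals (0.0539). Timp1 was called with limma-voom (adjusted p = 0.0222), and Mmp14 and Adamts13 in 4 alternatives each. The causes were not tested.

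Whether the replicate numbers pair the libraries was left undecided. Same-numbered libraries had deviations correlated weakly, at 0.0712, -0.0216 and 0.101. IRE1PKO 1 and IRE1PKO 3 each correlated best with the IRE1fl library of the same number, and IRE1PKO 2 correlated best with IRE1fl 1 (0.0236). Under the replicate block 10 members were called higher and 1 lower, and the median was 0.54. Over all tested genes the block gave 1051 higher and 814 lower, against 849 and 575 in the main fit. With each library left out, the log2 fold change of Loxl4 ran from -0.33 without IRE1fl 3 to 0.79 without IRE1fl 1 and was -0.06 without IRE1PKO 1, and that of Loxl1 ran from -0.10 without IRE1PKO 3 to 0.42 without IRE1PKO 2. The filter on low counts, at 0.266 CPM, left 18 members out of the tests.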
